A study of Rattus norvegicus with 12 samples.

Results

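The response to erastin was measured in cells of the rat nucleus pulposus, the soft centre of the spinal disc, while they also received exosomes that carry miR-221-3p. The comparison sets 3 libraries of cells given erastin together with these exosomes (erastin + miR-Exo) against 3 libraries of cells given the exosomes alone (miR-Exo), 6 of the 12 libraries of the study. Every gene with enough counts entered the comparison, 15650 of the 21071 genes listed. Exosomes are small vesicles shed by cells, and miR-Exo came from nucleus pulposus progenitor cells (NPPC) that overexpressed miR-221-3p. The remaining 6 libraries hold cells given exosomes of such progenitors without the overexpression (NPPC-Exo), 3 without and 3 with erastin, and are used here for the spread between libraries and for a comparison at the end. Exosomes were added at 50 µg/mL in all 4 groups, so the controls carry them as well and no cells without exosomes are analysed here. The medium was DMEM/F12 with 10% fetal bovine serum. Erastin was given at 0.1 to 5 µM for 48 h, a range for which the labels name no dose per library, and the deposited columns call the erastin groups Model. The labels give neither the strain, age or number of the rats nor whether a group's 3 libraries are separate cultures, so each p-value below measures the spread between these libraries, which may be technical.

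Erastin blocks system xc-, the exchanger that brings cystine into the cell for the synthesis of glutathione. Without glutathione the peroxidase GPX4 cannot repair oxidised membrane lipids, and iron-driven lipid peroxidation kills the cell by ferroptosis. Nucleus pulposus cells are known for a matrix rich in aggrecan and type II collagen that holds water under load, and loss of that matrix with inflammation marks disc degeneration. miR-221-3p is a microRNA that lowers mRNAs carrying a match to its seed, the bases near its 5′ end, and is best known for lowering the cell-cycle inhibitor p27.

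The added microRNA is shown with miR-222-3p, its neighbour in the genome, because both carry the same seed. The sequences are those of RefSeq (build GRCr8), 5′ to 3′, with the seed (bases 2 to 8) in capitals.
rno-miR-221-3p, chrX:6023246-6023268, + strand: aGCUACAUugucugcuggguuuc
rno-miR-222-3p, chrX:6022682-6022702, + strand: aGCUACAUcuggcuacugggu
Reads at Mir221, the gene of the hairpin, stood at 29.1, 26.4 and 27.6 CPM without erastin and 24.4, 23.9 and 24.4 CPM with it, where CPM is the count of a gene relative to the library total, scaled by trimmed means (TMM). They were not called with erastin (log2 fold change -0.19 ± 0.084, adjusted p 0.0731), although the 2 groups did not overlap, and they were called lower when only the 6 libraries compared were fitted (-0.21, adjusted p 0.0425). The mature microRNA is too short for such libraries and was not measured. Mir222 had too few counts to be tested.

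The libraries held 56418635 to 68865720 counts, which put the limit for a gene with 0 counts at 0.0440 to 0.0519 CPM per library (3 counts, counting error only). The 100 most abundant genes took 35.9 to 37.0% of counts without erastin and 27.1 to 27.4% with it, and the TMM factors were 0.919 to 0.946 and 1.14 to 1.15 in the same order. With library size alone in place of these factors the median log2 fold change of all genes moved from 0.029 to 0.334. Principal component 1 of the 6 libraries held 58.6% of their variance.

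Of 20 markers of nucleus pulposus and notochord 15 were tested, and Tbxt, Noto, Shh and Krt19 were not found by symbol among the genes listed. Krt18 had too few counts, 0 without erastin and 24 over the 3 libraries with it. Foxa2 had group means under 0.1 CPM, and Acan, Col2a1 and Pax1 were abundant. The summed level of these markers ran at 7837 to 9362 CPM without erastin and 1615 to 1689 CPM with it. Acan held most of that sum without erastin (means of 6568 CPM without and 773 CPM with it). By member 3 were called higher (Cd24, Ca12 and Slc2a1), 8 lower and 4 neither. Fibroblast markers summed to 51080.0 to 60076 CPM without erastin and 12457 to 16338 CPM with it, mostly Col1a1 and Col3a1. Of the 10 tested, 3 were called higher (Pdgfra, Dcn and Lum) and 6 lower. Smooth muscle markers ran at 12902 to 13445 CPM without erastin and 2511 to 2599 CPM with it. In bulk RNA fewer cells of a type and less RNA per cell cannot be told apart. Macrophage markers summed to 10.2 to 11.7 CPM without erastin and 22.5 to 30.0 CPM with it, and 7 of 17 were tested. Most of the sum was Cd14, which rose (means of 8.30 CPM without and 23.4 CPM with erastin). Cd68 rose too (means of 1.12 and 2.44 CPM), and the other 5 tested were not called. Adgre1 and Laptm5 had 0 counts in all 6 libraries. Fcer1g and Aif1 had 0 counts without erastin and 16 and 8 over the 3 libraries with it. Another 6 (Ptprc, Cd163, C1qa, C1qb, C1qc and Tyrobp) were not found by symbol among the genes listed. Neutrophil markers reached at most 1.04 CPM, lymphocyte markers 0.345 CPM and red cell markers 0.208 CPM in any of these libraries. Endothelial markers ran at 150.4 to 156 CPM without erastin and 10.0 to 12.9 CPM with it, and Esam alone made up most of that sum (means of 125 and 1.84 CPM), while Kdr and Tie1 had at most 9 and 4 counts over the 3 libraries of a group. The part of these markers in the results below was not tested.

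By edgeR's quasi-likelihood test with Benjamini-Hochberg adjustment, erastin changed 7687 of the 15650 genes at an adjusted p under 0.05 (49.1%), with 3873 rises (24.7%) and 3814 falls (24.4%). Of the changed genes 50.4% were higher, and 76.4% with library size alone. At least 2-fold higher were 1128 genes (7.21%) and at least 2-fold lower 1361 (8.70%), at 4-fold the counts were 467 (2.98%) and 516 (3.30%), and at 16-fold 218 (1.39%) and 129 (0.824%). The libraries of the 2 groups did not overlap for 9139 genes (58.4%). With 0 counts in all miR-Exo libraries 104 genes rose, and 53 genes fell to 0 counts in all erastin libraries. A gene near 0 without erastin passes the minimum count only through the libraries where it is high, so counts over such genes describe and do not test. In this text rose, fell, higher, lower and changed are used of genes past the threshold, log2 fold changes are given with their standard error (±), and a list is described by its counts and its median log2 fold change beside those of all genes tested (24.7% higher, 24.4% lower, median 0.029).

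Secreted inflammatory factors and the inducible nitric oxide synthase were among the 15 genes with the largest rise. Nos2, that synthase, stood at 0, 0.398 and 0.551 CPM without erastin and 61.8, 65.1 and 60.0 CPM with it, a step from next to nothing to about the same level in all 3 erastin libraries (log2 fold change 7.59 ± 0.64). Chemokines made up 6 of the 15 (Cxcl3, Cxcl6, Cxcl2, Ccl7, Ccl2 and Cxcl1). The others included the matrix proteases Mmp10 and Mmp3, complement C3, the interleukin Il1a, the kinase Fgr and Lcn2, a secreted binder of iron carriers. Tnip3, an inhibitor of NF-κB signalling, went from 0.414, 1.40 and 0.677 to 99.6, 106 and 92.9 CPM.

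The 15 largest falls held genes of muscle and of the elastic, cartilage and basement-membrane matrix. Fhl5, a LIM-domain protein, stood at 40.3, 38.9 and 39.0 CPM without erastin and 0.340, 0.323 and 0.139 CPM with it (log2 fold change -7.19 ± 0.19, adjusted p 8.34e-12). Eln, the elastic fibre protein, went from 1306, 1163 and 1249.8 to 34.3, 23.6 and 60.1 CPM, and Cilp, a matrix protein of the disc and cartilage, from 65.6, 59.2 and 59.2 to 2.98, 1.14 and 2.14 CPM. Col4a3, a basement-membrane collagen, went from 52.4, 52.5 and 49.7 to 1.73, 1.67 and 2.02 CPM. For these genes each of the 3 erastin libraries lay at least an order of magnitude under the lowest miR-Exo library. The genes were picked for groups that do not overlap and for the largest falls, so this gap is a description and not a test. The others were Mrap2, Pln, Esam, Mall, Ramp1, Ak5, Wscd2, Col9a2, Olfml2b, Wfdc1 and Ccn5, with log2 fold changes from -4.79 to -7.50.

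**Figure D1:**
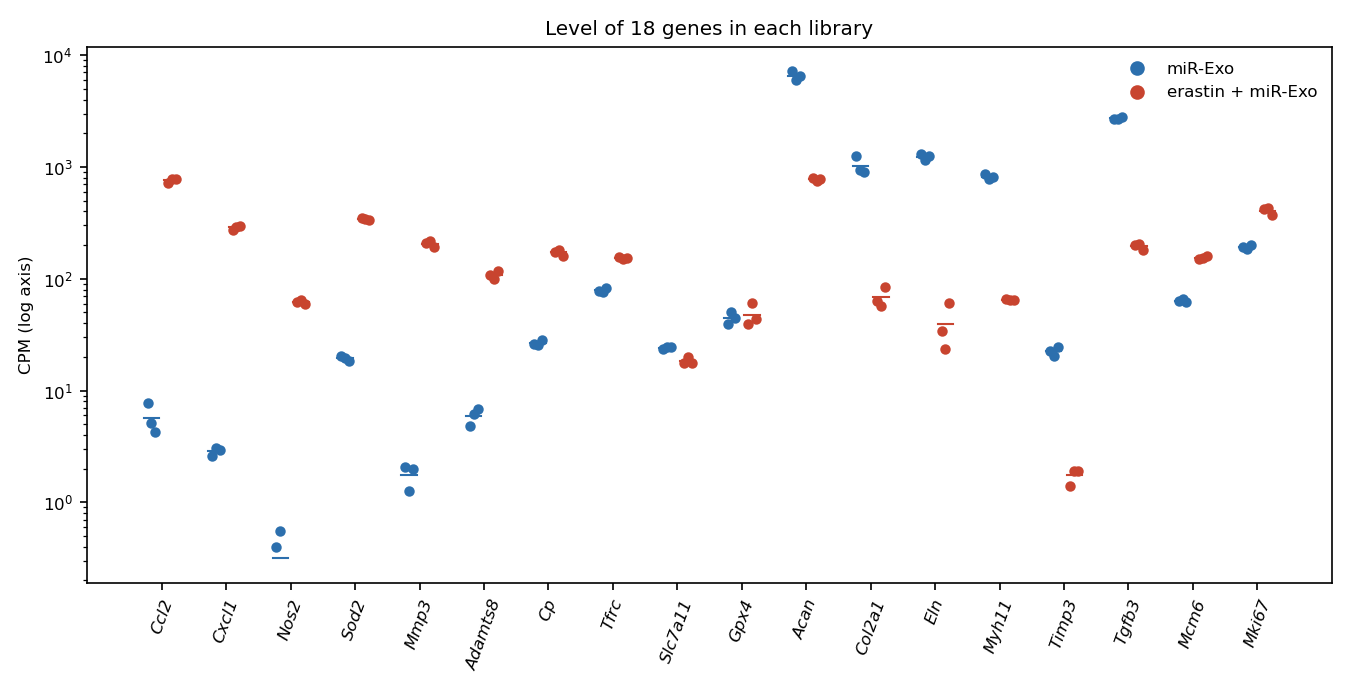
Level of 18 genes in CPM (log axis) in the 3 miR-Exo and the 3 erastin + miR-Exo libraries, each point a library and each bar the group mean. Ccl2, Nos2 and Mmp3 rose from under 10 to over 50 CPM in all 3 erastin libraries, Acan, Eln and Timp3 fell, and Gpx4 overlapped between groups. The miR-Exo library with 0 CPM of Nos2 cannot be drawn on a log axis.

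Genes of the ferroptosis pathway moved in both directions, and Gpx4 was not called. Slc7a11, the cystine carrier that erastin blocks, stood at 23.6, 24.4 and 24.4 CPM without erastin and 17.5, 19.7 and 17.5 CPM with it and fell slightly (log2 fold change -0.40 ± 0.075, adjusted p 5.49e-04), a call lost with library size alone (-0.10). Its partner chain Slc3a2 fell further, from 214, 171 and 177 to 93.0, 98.9 and 97.8 CPM (log2 fold change -0.96 ± 0.080). Gpx4 stood at 39.2, 50.4 and 44.4 CPM without erastin and 39.2, 60.5 and 43.2 CPM with it, and the groups overlapped (log2 fold change 0.093 ± 0.20, adjusted p 0.730). Of 30 tested genes of cystine and glutathione 9 were higher and 9 lower (median 0.063).

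Within that list the enzymes that make, use and regenerate glutathione moved both ways. Gclc, which joins cysteine to glutamate, fell from 144 to 100.5 CPM on average (-0.51 ± 0.045), while its regulatory chain Gclm and the synthetase Gss were not called (0.10 ± 0.11 and -0.11 ± 0.095). The amino acid carrier Slc1a4 fell (-1.30 ± 0.061). Ggt1, which splits glutathione outside the cell, went from 0.673, 1.38 and 0.913 to 7.09, 8.15 and 7.21 CPM (2.92 ± 0.30), and the transferases Mgst1, Gstm1 and Gstp1 rose by 2.35 ± 0.27, 1.10 ± 0.10 and 1.00 ± 0.084. Gsr, which regenerates reduced glutathione, rose by 0.61 ± 0.079. Gpx1 stood at 154, 64.8 and 61.4 CPM without erastin, where replicate 1 was well above the other 2 libraries, and at 42.4, 39.9 and 44.8 CPM with it (-1.14 ± 0.26).

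Protectors that act beside GPX4 were higher more often than lower, 15 against 9 of 36 (median 0.18). Sod2, the superoxide dismutase of mitochondria, showed the largest rise of the list, from 20.6, 19.7 and 18.5 to 348, 345 and 338 CPM (log2 fold change 4.13 ± 0.14, adjusted p 8.02e-11). Gch1, which starts the synthesis of the radical trap tetrahydrobiopterin, rose from 0.742, 0.415 and 0.913 to 2.26, 2.35 and 2.62 CPM, and Qdpr, which keeps it reduced, rose by 0.82 ± 0.11. Aifm2 (FSP1) and Dhodh, which reduce coenzyme Q, rose by 0.48 ± 0.089 and 0.84 ± 0.13, as did Nqo1 by 0.56 ± 0.070. Peroxiredoxins split: Prdx5, Prdx6 and Prdx1 rose by 1.43 ± 0.091, 0.65 ± 0.072 and 0.66 ± 0.079, and Prdx3 fell (-0.65 ± 0.066). Hmox1, which breaks down haem and frees its iron, fell from 143, 157 and 151 to 75.3, 76.6 and 85.5 CPM (log2 fold change -0.93 ± 0.081, adjusted p 6.00e-07), and the extracellular Sod3 fell by a similar factor (-1.14 ± 0.10).

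Of 25 genes of iron handling 14 rose and 2 fell, Hmox1 and transferrin (Tf, -0.25, whose sign turned with library size alone, at 0.058, and with limma on FPKM) (median 0.32). Tfrc, the transferrin receptor that brings iron in, stood at 77.4, 75.6 and 82.6 CPM without erastin and 156, 151 and 155 CPM with it (log2 fold change 0.97 ± 0.071, adjusted p 1.00e-07). Slc11a2, which moves iron out of endosomes, went from 36.6, 39.6 and 38.5 to 120.5, 125 and 119 CPM, and Slc39a8 and Slc39a14, carriers of iron not bound to transferrin, rose by 1.92 ± 0.17 and 0.48 ± 0.053. Ceruloplasmin (Cp), which oxidises iron on its way out, went from 26.0, 25.8 and 28.4 to 173, 182 and 161 CPM (2.68 ± 0.090), while the exporter Slc40a1 was not called (0.31 ± 0.13, adjusted p 0.0659). Ferritin heavy chain Fth1 rose from 323, 263 and 221 to 497, 495 and 503 CPM, and light chain Ftl1 was not called (0.10 ± 0.13). Ncoa4, which delivers ferritin to the lysosome, rose by 0.59 ± 0.049, and the mitochondrial iron carrier Slc25a37 by 1.56 ± 0.10. Steap4, an iron reductase, was at 0 counts in every miR-Exo library and at 1.29, 0.850 and 1.13 CPM with erastin, at least 21.6-fold higher.

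Enzymes that load membranes with polyunsaturated fatty acids showed no common direction, 9 higher and 6 lower of 31 (median -0.0068). Acsl4, the acyl-CoA synthetase that sensitises cells to ferroptosis, rose by 0.19 ± 0.055, a call lost when miR-Exo replicate 1, erastin + miR-Exo replicate 1 or erastin + miR-Exo replicate 2 was left out (0.130 to 0.166). Lpcat3 and Por were not called (0.031 ± 0.058 and 0.072 ± 0.068), whereas Lpcat2 rose from 2.33 to 5.52 CPM and the lipoxygenase Alox5 from 0.638 to 1.86 CPM. Cyb5r1, a reductase tied to lipid peroxidation, fell (-1.04 ± 0.072), and so did the desaturases Scd, Scd2 and Fads2 (-0.84 ± 0.091, -0.66 ± 0.057 and -0.53 ± 0.079).

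Genes of inflammatory cell death had 11 of 18 members higher and 2 lower (median 0.84). The 2 lower ones were Tradd and Ninj1, calls lost with library size alone (-0.64 and -0.076) and with limma on FPKM, and for Tradd also without miR-Exo replicate 1 (-0.55) or erastin + miR-Exo replicate 2 (-0.75). Nlrp3, the sensor of an inflammasome, stood at 4.83, 5.80 and 6.00 CPM without erastin and 59.7, 64.4 and 59.4 CPM with it (log2 fold change 3.46 ± 0.11, adjusted p 2.44e-11), and Gsdmd, the pore that inflammasomes open, went from 29.8, 30.9 and 32.0 to 74.0, 71.0 and 75.6 CPM. Casp1 rose from 0.226 to 2.11 CPM, Casp8 by 1.29 ± 0.12, and the necroptosis genes Mlkl and Ripk3 by 1.38 ± 0.14 and 0.60 ± 0.067. In the BCL2 family 5 of 15 were higher and 4 lower: the death-promoting Bid and Bcl2l11 rose by 1.63 ± 0.11 and 1.46 ± 0.12, Pmaip1 and Bok fell (-0.57 ± 0.048 and -0.97 ± 0.13), and Bax, Bak1 and Bcl2 were not called. Bbc3 and Mcl1 are not analysed here.

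NF-κB is the factor that switches on many inflammatory genes. All 25 genes of its subunits and brakes were tested, 19 were higher and 1 lower (median 1.04). Nfkbia, the inhibitor that binds NF-κB in the cytoplasm, stood at 8.02, 7.44 and 7.70 CPM without erastin and 75.2, 67.0 and 69.4 CPM with it (log2 fold change 3.19 ± 0.13, adjusted p 3.85e-10). Birc3 went from 2.97, 2.32 and 2.33 to 32.2, 30.7 and 34.9 CPM and the kinase Map3k8 from 1.22, 1.37 and 1.81 to 30.3, 33.2 and 29.1 CPM. Among the subunits Relb, Nfkb1 and Nfkb2 rose by 1.78 ± 0.15, 1.28 ± 0.083 and 1.04 ± 0.094, and Ikbkg, the scaffold of the activating kinase, fell (-0.75 ± 0.10).

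Of 25 chemokine genes 18 had enough counts, and 16 of these were higher and 0 lower. Their median log2 fold change was 6.46, or 5.65 with genes at 0 counts taken at their bound. Ccl2, which draws monocytes, stood at 7.69, 5.16 and 4.24 CPM without erastin and 723, 782 and 787 CPM with it (adjusted p 1.56e-11). Cxcl1, which draws neutrophils, went from 2.60, 3.06 and 2.93 to 275, 293 and 298 CPM and Cxcl6 from 0.104, 0.813 and 1.34 to 180.2, 173 and 161 CPM. Cx3cl1, the membrane-bound chemokine, went from 1.05, 0.796 and 0.929 to 61.4, 65.2 and 63.0 CPM, and Ccl20 from 0.173, 0.484 and 0.378 to 28.0, 25.4 and 27.3 CPM. Cxcl16 was already present without erastin (4.35, 4.38 and 5.01 CPM) and reached 170.0, 174 and 166 CPM, and the stromal chemokine Cxcl12 rose by 2.96 ± 0.085. In each of these genes the lowest erastin library lay several-fold above the highest miR-Exo library. Cxcl11, with 0 counts in all miR-Exo libraries, was at least 35.6-fold higher.

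Promoters of these genes are shown because a match to the κB consensus, the motif that NF-κB binds, lay in 6 of the 14 chemokine genes with a promoter in the table. The window was 250 bases before to 50 after the transcription start in RefSeq (build GRCr8), the consensus was searched on both strands, and it was 3 G, a purine, any base, A or T, 2 pyrimidines and 2 C. It was found in 12 of the 20 NF-κB genes with a promoter in the table (60%), against 4.97% of the 11143 tested genes with a promoter and 4.16% of all 27457 promoters. Promoters were found for 77.8% of the tested chemokine genes, 80% of the NF-κB genes and 71.2% of all genes tested, so these values cover only part of each set. Each stretch reads 5′ to 3′ on the strand of its gene, with the match in capitals.
Cxcl1, chr14:17479360-17479439, - strand: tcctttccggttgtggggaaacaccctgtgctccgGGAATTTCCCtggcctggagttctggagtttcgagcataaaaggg
Cxcl2, chr14:17467284-17467363, - strand: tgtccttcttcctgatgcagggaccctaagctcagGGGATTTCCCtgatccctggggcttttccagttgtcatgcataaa
Cxcl6, chr14:17596460-17596539, - strand: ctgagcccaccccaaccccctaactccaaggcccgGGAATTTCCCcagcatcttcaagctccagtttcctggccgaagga
Ccl20, chr9:91837035-91837114, + strand: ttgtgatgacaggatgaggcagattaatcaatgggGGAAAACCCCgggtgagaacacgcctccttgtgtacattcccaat
Cxcl10, chr14:15988844-15988923, + strand: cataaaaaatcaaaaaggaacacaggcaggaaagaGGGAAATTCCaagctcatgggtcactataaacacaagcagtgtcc
Cxcl11, chr14:15973619-15973698, + strand: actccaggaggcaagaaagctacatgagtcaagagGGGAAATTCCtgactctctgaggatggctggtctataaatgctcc
Nfkbia, chr6:78597073-78597138, - strand: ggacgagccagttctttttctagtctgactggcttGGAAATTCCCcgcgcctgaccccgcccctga
Tnfaip3, chr1:15543990-15544069, - strand: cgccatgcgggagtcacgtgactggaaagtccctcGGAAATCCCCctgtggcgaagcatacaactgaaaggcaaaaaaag
Capitals mark 1 match in each; Cxcl1, Cxcl2 and Cxcl6 hold another that starts 1 base earlier, and Tnfaip3 a further one in lower case. The match in Cxcl1 and Cxcl6 is spelt by the same letters, and the Cxcl10 and Cxcl11 matches are alike as well. The other 8 chemokine genes, among them Ccl7, Cx3cl1, Cxcl12 and Cxcl16, had no match in this window, nor had Tnip3, Sod2, C3 and Mmp3, which says only that these letters are not there. A match is a description of the sequence, and binding was not measured.

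Cytokine and receptor genes had 21 of 34 members higher and 5 lower (median 0.94). Il6 stood at 5.47, 7.53 and 6.13 CPM without erastin and 93.5, 105 and 102 CPM with it (log2 fold change 3.97 ± 0.14, adjusted p 1.06e-10), and Lif, of the same family, went from 34.2, 40.2 and 45.0 to 152, 153 and 175 CPM. Csf1, the growth factor of macrophages, went from 148, 145 and 152 to 652, 654 and 641 CPM. The interleukin-1 system moved on both sides of its receptor. Il1a reached 21.6, 25.8 and 20.3 CPM from 0.173, 0 and 0.268 CPM, and Il1b, at 0 counts without erastin, was at least 24.3-fold higher. The receptor Il1r1 rose by 1.62 ± 0.062, its partner chain Il1rap fell (-1.63 ± 0.070), and the interleukin-33 receptor Il1rl1 fell from 1311, 1367 and 1469.5 to 209, 218 and 206 CPM. Tnf stayed low, at 0.888, 2.15 and 1.25 CPM with erastin and 0, 0 and 0.0630 CPM without. Tnfrsf11b (osteoprotegerin), a decoy that blocks bone resorption, fell (-1.19 ± 0.057).

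Complement and acute-phase genes had 14 of 20 members higher and 1 lower (median 2.27). C3 went from 0.138, 0.640 and 0.535 to 63.5, 63.1 and 61.2 CPM, and the proteases C1r and C1s that start the classical pathway from 56.3 to 369 and from 8.44 to 147 CPM on average. Ptx3 reached 29.2, 28.7 and 28.6 CPM, and Tlr2, a sensor of bacterial lipoproteins, 61.6, 66.3 and 60.2 CPM from 0.604, 0.813 and 1.10 CPM. Of the shields against complement, Cd55 rose (2.88 ± 0.11) and Cd59 fell (-1.32 ± 0.086).

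Ptgs2 (cyclooxygenase-2), also used as a marker of ferroptosis, went from 137, 157 and 190.2 to 494, 525 and 516 CPM (log2 fold change 1.67 ± 0.090, adjusted p 5.76e-09), and Ptges, which makes prostaglandin E2 from its product, from 0.328, 1.19 and 0.677 to 49.1, 51.3 and 57.0 CPM. The importer Slco2a1 fell (-1.25 ± 0.10), and the list as a whole had 8 higher and 4 lower of 16; the lower count was 1 to 2 when any library but erastin + miR-Exo replicate 3 was left out. Among makers of radicals and users of arginine 8 of 15 were higher and 2 lower. Ass1, which remakes arginine for nitric oxide synthase, went from 2.40, 2.37 and 1.37 to 42.3, 44.7 and 44.9 CPM. The superoxide source Xdh rose by 2.97 ± 0.20, and among NADPH oxidases Nox1 rose (3.66 ± 0.27) and Nox4 fell from 16.3, 16.9 and 21.0 to 4.12, 4.72 and 3.58 CPM.

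Interferon-response genes had 16 of 25 members higher and 0 lower (median 1.43). Gbp2, a GTPase of the interferon response, went from 0.742, 1.92 and 1.73 to 47.7, 43.1 and 47.5 CPM, and the transcription factors Irf1, Irf7 and Irf8 rose by 1.94 ± 0.10, 1.43 ± 0.18 and 1.51 ± 0.17. Antigen presentation rose in 18 of 21 genes and fell in 0 (median 1.30). B2m, the light chain of MHC class I, went from 184, 201 and 189 to 462, 469 and 477 CPM, and the immunoproteasome chains Psmb8 and Psmb9 rose by 2.09 ± 0.18 and 2.85 ± 0.29. Vcam1, which holds leukocytes, went from 0.569, 0.519 and 0.598 to 52.8, 49.8 and 50.7 CPM, and Cd74, the invariant chain of MHC class II, from 0.604, 0.398 and 0.283 to 18.4, 17.2 and 16.6 CPM.

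**Figure D2:**
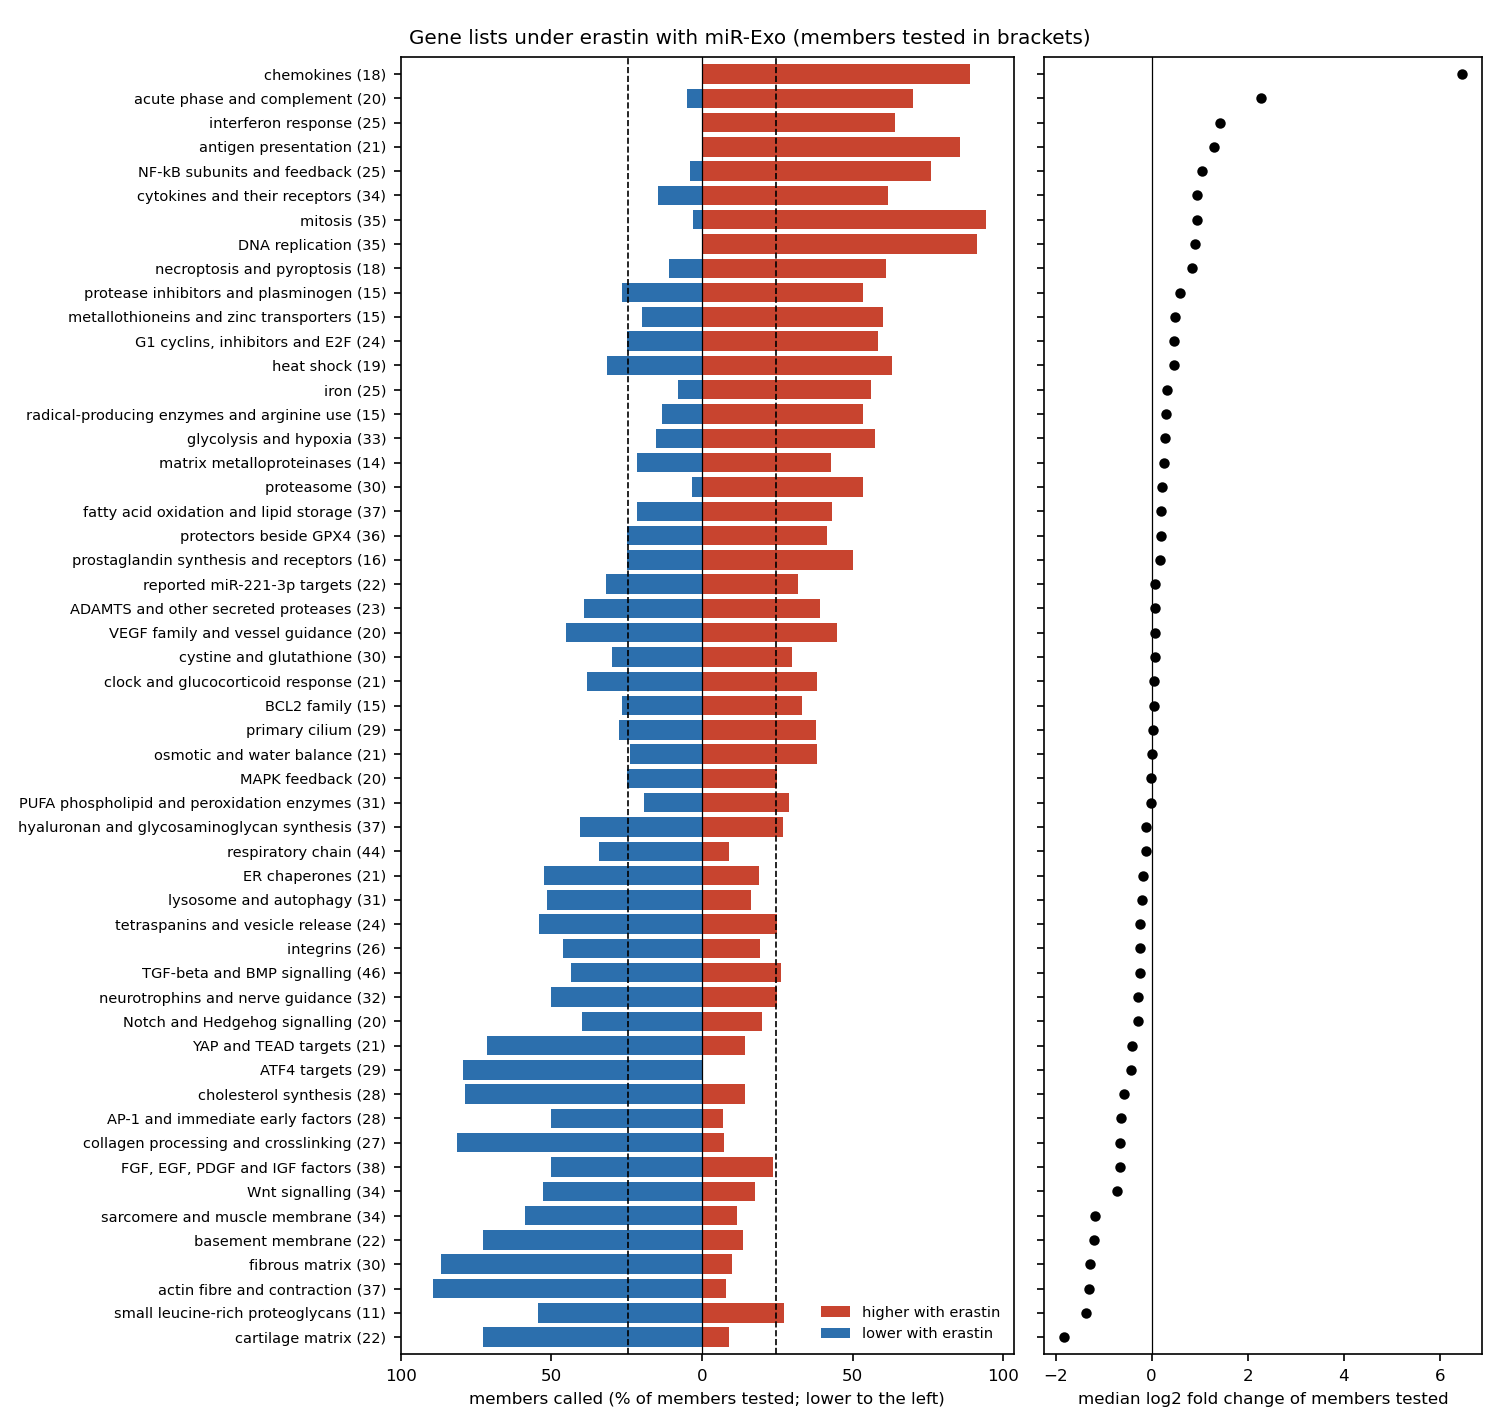
Percent of tested members higher (bars to the right) and lower (bars to the left) with erastin under miR-Exo in the gene lists, with the median log2 fold change of each list in the right panel. Dashed lines mark all genes tested, 24.7% higher and 24.4% lower. Chemokines (16 of 18 higher), mitosis and DNA replication lie far to the right and actin fibre (33 of 37 lower), fibrous matrix and collagen processing far to the left.

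Matrix-degrading enzymes split within their families. Of 14 metalloproteinases tested 6 were higher and 3 lower (median 0.26). Mmp3 (stromelysin) stood at 2.05, 1.26 and 2.00 CPM without erastin and 208, 217 and 193 CPM with it, and Mmp13, the collagenase that cuts type II collagen, went from 1.29, 1.42 and 1.87 to 116, 118 and 119 CPM. Mmp10 went from 0.311, 0.415 and 0.315 to 42.4, 44.2 and 38.4 CPM. Mmp12, with 0 counts in all miR-Exo libraries, was at least 37.2-fold higher. The gelatinase Mmp2 and the membrane-bound Mmp14 were not called (-0.018 ± 0.045 and -0.042 ± 0.042, and 0.287 and 0.263 with library size alone), and Mmp23, Mmp17 and Mmp28 fell (-1.57 ± 0.081, -2.72 ± 0.17 and -2.76 ± 0.21).

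The ADAMTS enzymes and other secreted proteases were higher in 9 and lower in 9 of 23 cases. The aggrecanases Adamts4 and Adamts5 went from 12.2, 15.4 and 13.3 to 35.7, 29.7 and 39.4 CPM and from 30.0, 28.5 and 29.9 to 54.3, 51.6 and 46.1 CPM (log2 fold change 0.78 ± 0.077, adjusted p 2.04e-06). Adamts8 rose most, from 4.80, 6.14 and 6.82 to 109, 99.5 and 117 CPM. Adamts2 and Adamts14, which trim procollagen, fell from 69.9 to 12.4 and from 72.3 to 35.7 CPM on average. Of 15 protease inhibitors and plasmin genes 8 were higher and 4 lower. Timp3, which blocks both families of enzymes, went from 22.7, 20.2 and 24.5 to 1.41, 1.89 and 1.91 CPM (log2 fold change -3.69 ± 0.14, adjusted p 1.57e-10), and Timp2 fell (-1.18 ± 0.060). On the plasmin side Plau and Plat rose (2.08 ± 0.14 and 1.18 ± 0.10), and so did the inhibitor Serpine2 (1.40 ± 0.062).

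Genes of the cartilage-like matrix were mostly lower, 16 of 22 against 2 higher (median -1.82). Acan stood at 7164, 6012 and 6528 CPM without erastin and 789, 749.6 and 779.9 CPM with it (adjusted p 3.11e-12), and Col2a1 at 1248, 930.4 and 906 CPM without erastin and 63.5, 56.6 and 83.8 CPM with it. Hapln1, the link protein that ties aggrecan to hyaluronan, went from 24.8, 28.3 and 27.9 to 7.93, 5.79 and 6.57 CPM, and Col9a2, a collagen on the surface of type II fibrils, from 76.5, 57.9 and 50.7 to 1.60, 1.39 and 2.73 CPM. Sox9, the transcription factor that drives these genes, fell from 41.9, 26.4 and 28.0 to 5.98, 4.85 and 6.19 CPM (log2 fold change -2.50 ± 0.21, adjusted p 3.58e-07). The 2 rises were Vcan, from 342, 344 and 381 to 2516, 2498 and 2213 CPM, and the lubricin gene Prg4, from 0.0690 to 2.86 CPM. Groups did not overlap for any gene named in this paragraph, beside 58.4% of all genes tested. Such genes were named partly for a small adjusted p or for groups that do not overlap, so this describes and does not test.

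Interstitial matrix was mostly lower, 26 of 30 fibrous genes against 3 higher (median -1.28). Col1a1 went from 35612, 27210.3 and 26547 to 7269.7, 6118 and 8601 CPM (log2 fold change -2.02 ± 0.16, adjusted p 1.86e-07) and Col3a1 from 20231, 19541 and 20553 to 5690.4, 4909.6 and 6303 CPM. Fbln5, which assembles elastic fibres, went from 927, 856 and 937 to 121, 123 and 118 CPM, so that both it and Eln fell steeply. Fn1 fell slightly with TMM (-0.27 ± 0.051) and had 0.033 with library size alone. Of 22 basement-membrane genes 16 were lower and 3 higher, with Col18a1 and Nid1 at -2.10 ± 0.15 and -1.32 ± 0.060. The enzymes that modify collagen had 22 of 27 members lower and 2 higher (median -0.65): Serpinh1, the collagen chaperone, went from 4129, 3794 and 3612 to 1335, 1279 and 1569 CPM, and Plod1, P3h1 and P4ha1 had -0.70 ± 0.050, -0.65 ± 0.048 and -0.55 ± 0.046. Lox, which crosslinks collagen and elastin, rose by 0.55 ± 0.055.

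Small leucine-rich proteoglycans split between members, 3 higher and 6 lower of 11. Aspn went from 43.2, 49.7 and 48.4 to 3.70, 3.40 and 3.02 CPM and Ogn from 98.9, 113 and 109.8 to 15.6, 10.9 and 13.1 CPM. Fmod and Bgn fell by less (-1.38 ± 0.056 and -0.82 ± 0.046), while Lum rose from 100.3, 97.2 and 105 to 329, 336 and 321 CPM and Dcn from 4.17, 4.69 and 5.26 to 26.4, 28.9 and 25.0 CPM. Glycosaminoglycan enzymes had 10 higher and 15 lower of 37, and 15 and 8 with library size alone, so their balance depends on the scaling. Has2, which makes hyaluronan, rose (1.32 ± 0.11), as did Ugdh, which makes its precursor (1.45 ± 0.054), and the hyaluronan-degrading Cemip2 (1.82 ± 0.10). Chpf and Chst3, which extend and sulphate chondroitin, fell (-1.81 ± 0.29 and -1.85 ± 0.16).

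**Figure D3:**
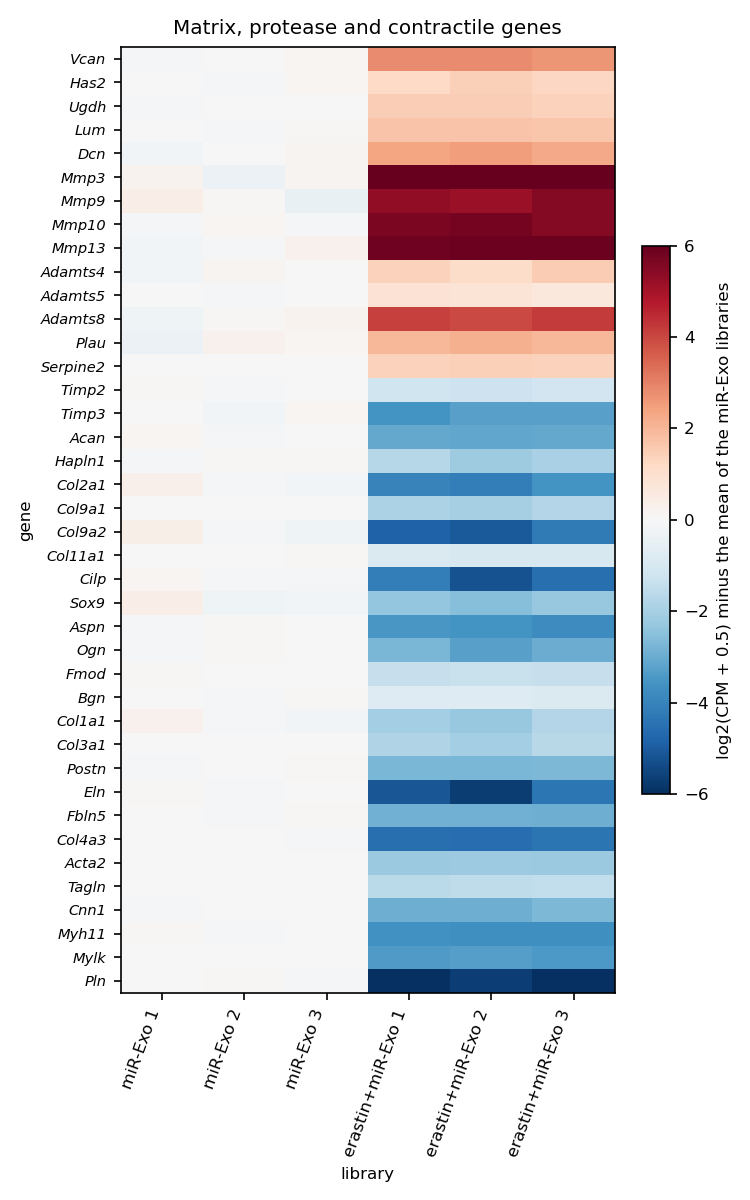
Levels of 40 genes, mostly of matrix, proteases and contraction, in the 6 libraries as log2(CPM + 0.5) minus the mean of the miR-Exo libraries. The colour scale is limited at 6 either way. In all 3 erastin libraries 14 genes lie above every miR-Exo library and 26 below, in a list chosen with earlier results of these data known. Of all genes tested 58.4% did not overlap between groups.

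Contractile genes were mostly lower: 33 of 37 genes of actin fibres were lower and 3 higher (median -1.31). Myh11, the myosin of smooth muscle, stood at 858, 784 and 819.7 CPM without erastin and 66.0, 64.2 and 64.5 CPM with it (log2 fold change -3.66 ± 0.057, adjusted p 1.36e-13), and Mylk, the kinase that starts its contraction, went from 610.2, 618 and 617 to 58.3, 60.9 and 55.4 CPM. Cnn1 went from 725, 777 and 766 to 98.5, 100.1 and 118 CPM and Actg2 from 169.5, 177 and 159.8 to 20.5, 20.9 and 22.9 CPM. Myocd, the co-activator of smooth muscle genes, fell from 222, 205 and 225 to 43.1, 41.7 and 36.1 CPM, as did its relative Mrtfa (-1.46 ± 0.11) and their partner Srf (-0.78 ± 0.092). Of the abundant non-muscle actins, Actb fell (-0.63 ± 0.13, lost by limma on FPKM at -0.30) and Actg1 had 0.12 ± 0.043, a call lost when any 1 of the 6 libraries was left out (0.099 to 0.125). Sarcomere and muscle-membrane genes had 20 of 34 members lower and 4 higher. Casq2, a calcium store protein, went from 83.1, 87.6 and 92.4 to 2.66, 3.34 and 3.66 CPM, and dystrophin (Dmd) from 56.0 to 8.81 CPM on average.

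The CArG box, 2 C then 6 of A or T then 2 G, is the motif that SRF binds. In the same window and on both strands it lay in 4 of the 28 sarcomere genes with a promoter (14.3%) and in 1.32% of tested genes. In the actin fibre list 3 of the 29 genes with a promoter carried a match, shown in capitals. Promoters were found for 78.4% of that list, 82.4% of the sarcomere list and 71.2% of all genes tested. Srf holds a further match in lower case.
Srf, chr9:21923980-21924059, + strand: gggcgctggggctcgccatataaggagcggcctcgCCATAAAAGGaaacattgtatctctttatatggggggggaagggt
Cnn2, chr7:10370339-10370418, - strand: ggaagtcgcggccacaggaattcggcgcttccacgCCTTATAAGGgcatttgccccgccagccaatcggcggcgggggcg
Actg1, chr10:106120997-106121076, - strand: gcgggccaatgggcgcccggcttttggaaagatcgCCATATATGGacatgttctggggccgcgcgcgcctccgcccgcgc
Srf and Cnn2 fell (-0.78 ± 0.092 and -0.71 ± 0.064), and the call of Actg1 rested on all 6 libraries, as given above.

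Integrins, the receptors that tie cells to their matrix, and their linkers had 12 of 26 members lower and 5 higher, although the median of the list (-0.24) was 0.063 with library size alone. Itga8 and Itga11, receptors of matrix on mesenchymal cells, went from 744, 736 and 789 to 208, 198 and 199.8 CPM and from 1380.0, 1278 and 1420.3 to 396, 374 and 356 CPM. Itga2, a collagen receptor, rose from 1.62, 2.49 and 1.72 to 46.0, 47.7 and 51.6 CPM. Targets and partners of YAP had 15 of 21 members lower and 3 higher, with 9 lower under library size alone. Ccn2 and Ccn1, matricellular targets of YAP, went from 6781, 6949.8 and 6958 to 2633, 2639.7 and 2669.8 CPM and from 1101, 998 and 1098 to 402, 437 and 410.3 CPM.

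Among TGF-β and BMP genes Tgfb3 fell from 2705, 2711 and 2797 to 199.8, 206 and 181 CPM (log2 fold change -3.81 ± 0.13, adjusted p 7.04e-11), Tgfb2 fell (-1.94 ± 0.069) and Tgfb1 was not called (-0.27 ± 0.14, overlapping groups). Inhba, the activin chain, rose from 209, 203 and 219.5 to 641, 599 and 649.8 CPM, and the BMP antagonist Grem1 rose by 0.29 ± 0.055. Of 46 members 20 were lower and 12 higher, which turned to 15 and 17 with library size alone. Wnt genes were lower in 18 and higher in 6 of 34 cases: the receptors Fzd7 and Fzd8 went from 55.5 to 11.7 and from 30.7 to 2.34 CPM on average, and the ligand Wnt5a rose from 16.5, 14.2 and 15.7 to 52.5, 47.0 and 55.0 CPM. Of Notch and Hedgehog genes 8 of 20 were lower and 4 higher. The Notch ligand Jag1 went from 363, 343 and 373 to 28.9, 26.7 and 30.9 CPM, the receptor Notch3 from 39.6, 32.1 and 30.3 to 5.42, 3.42 and 5.49 CPM, and the target genes Hes1, Hey2 and Heyl fell (-2.06 ± 0.14, -2.30 ± 0.13 and -3.27 ± 0.31).

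Among the FGF, EGF, PDGF and IGF genes 19 of 38 were lower and 9 higher (median -0.66). Egfr went from 22.4, 20.2 and 21.9 to 79.3, 78.4 and 75.5 CPM, and Hgf and the EGF-like ligand Ereg rose (1.65 ± 0.15 and 1.95 ± 0.30). The 2 PDGF receptors went apart, with Pdgfra higher (1.06 ± 0.083) and Pdgfrb lower (-0.95 ± 0.042), and so did 2 related fibroblast growth factors, Fgf7 (3.17 ± 0.19) and Fgf10 (-1.31 ± 0.078). In the vessel list 9 were higher and 9 lower of 20. Vegfa was not called (0.18 ± 0.075), Angptl4, which inhibits lipoprotein lipase, went from 4.04, 4.15 and 4.77 to 169, 165 and 172 CPM, and Pgf fell (-1.34 ± 0.13). Nerve guidance genes had 16 of 32 members lower and 8 higher. Slit3 went from 60.2, 51.0 and 54.8 to 10.8, 8.11 and 8.36 CPM, and the guidance cue Ntn1 rose from 0.115 to 3.52 CPM.

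Immediate early factors had 14 of 28 members lower and 2 higher (median -0.65), and for some of them the miR-Exo libraries lay far apart. Junb stood at 78.2, 12.9 and 12.6 CPM without erastin and 4.43, 3.52 and 7.93 CPM with it (log2 fold change -2.71 ± 0.68, adjusted p 0.00473). Replicate 1 without erastin was thus several-fold above the other 2 libraries. DESeq2 had a log2 fold change of -2.72 for Junb but returned no adjusted p. Fos went from 49.8, 69.3 and 83.0 to 13.1, 15.4 and 19.6 CPM and Egr1 from 283, 347 and 408 to 127, 148 and 169 CPM. Without the 1252 genes of highest weight in a within-group component of spread, described next, 9 of 22 were lower and the median was -0.36. The phosphatase Dusp1, which ends MAP kinase signals, fell from 167, 193 and 221 to 53.7, 63.9 and 59.3 CPM (-1.71 ± 0.11).

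A component of spread within groups was taken from deviations in the other 6 libraries. The libraries compared here entered it only through the choice of genes and the TMM factors. Over 12517 genes with a mean of at least 1 CPM over the 4 groups, the component held 41.3% of the spread of the NPPC-Exo groups. NPPC-Exo replicate 1 was at 0.79 against -0.26 and -0.53 for replicates 2 and 3. In the 10% of genes with the highest weight the median log2 fold change with erastin was -0.49 under miR-Exo and 0.13 under NPPC-Exo, against 0.0083 for all 12517 genes under miR-Exo. Of these genes 47.8% were lower and 14.3% higher under miR-Exo (28.6% and 28.5% over all), and they held 364 of the 1132 genes at least 2-fold lower (32.2%). Their median deviation from the group mean was 0.143, -0.070 and -0.084 in the 3 miR-Exo libraries and -0.0078, -0.101 and 0.119 in the 3 erastin + miR-Exo libraries. Col2a1, Col9a2, Col1a1, Sox9, Junb, Jun, Cdkn1a, Cdkn1b, Gdf15, Adamts2, Notch3 and Hes1 are among them. Without such genes the median of the cartilage matrix list went from -1.82 to -1.25, with 11 of 17 lower, and that of the fibrous matrix from -1.28 to -1.05. The source of this component was not tested.

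**Figure D4:**
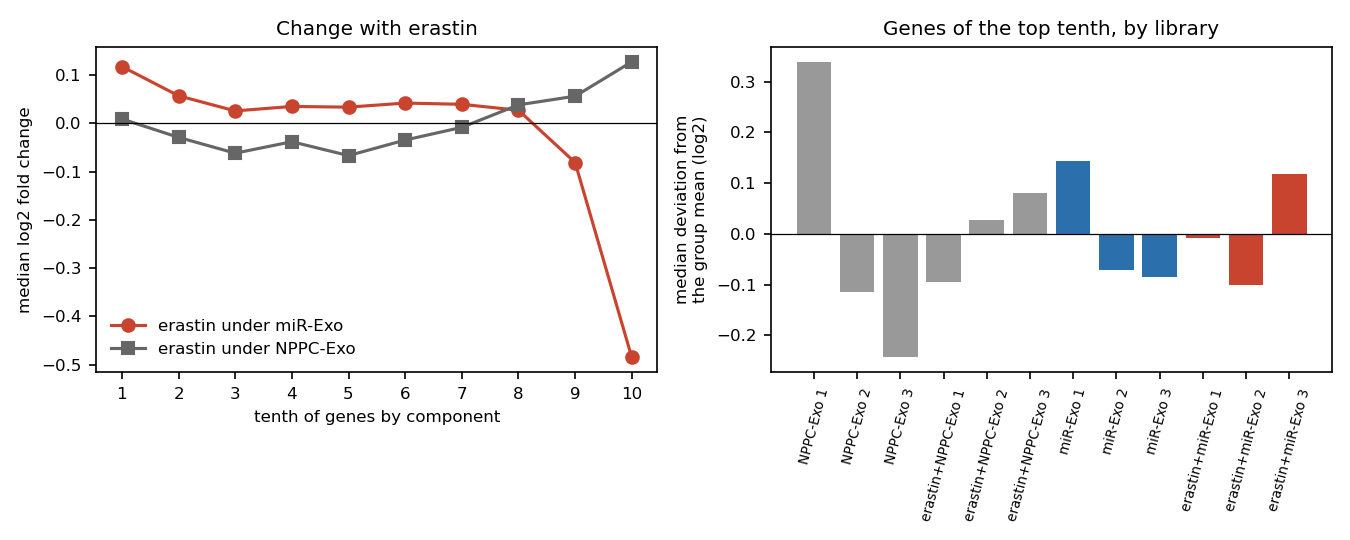
Left, median log2 fold change with erastin under miR-Exo and under NPPC-Exo in 10 groups of genes ordered by their weight in the component of spread within the NPPC-Exo groups. Right, median deviation of the genes with the highest weight from their group mean in each of the 12 libraries, which runs from -0.084 to 0.143 in the 3 miR-Exo libraries and from -0.101 to 0.119 in the 3 erastin + miR-Exo libraries.

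Genes that answer amino acid shortage through ATF4 had 23 of 29 members lower and 0 higher (median -0.43), and 14 lower and 3 higher with library size alone. Atf4 itself went from 378, 358 and 322 to 217, 222 and 208 CPM (-0.71 ± 0.069). Nupr1 and Pck2 fell (-1.30 ± 0.11 and -1.45 ± 0.084), as did the amino acid carrier Slc7a5 (-1.08 ± 0.054). Chac1, which breaks down glutathione and is used as a marker of erastin treatment, went from 33.4, 37.0 and 38.5 to 16.3, 16.7 and 19.3 CPM (log2 fold change -1.06 ± 0.12, adjusted p 6.82e-06). Chaperones of the endoplasmic reticulum had 4 higher and 11 lower of 21 (9 and 3 with library size alone), with Hspa5 at -0.21 ± 0.041, a sign that turned with library size alone (0.098). Heat-shock genes were higher in 12 and lower in 6 of 19 cases. Hsp90ab1 and Hsph1 rose by 0.88 ± 0.040 and 0.94 ± 0.055. Hspa1b fell from 68.6, 20.5 and 15.6 to 2.80, 2.55 and 4.18 CPM, again with miR-Exo replicate 1 highest. Proteasome subunits had 16 of 30 members higher and 1 lower (Psmb4, a call lost with library size alone), all by less than 2-fold.

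Of 28 cholesterol genes 22 were lower and 4 higher (median -0.59). The enzymes Hmgcs1, Cyp51 and Msmo1 of sterol synthesis fell (-1.06 ± 0.073, -1.02 ± 0.052 and -0.86 ± 0.067). The exporter Abca1 rose by 1.13 ± 0.11. Glycolysis and hypoxia genes had 19 of 33 members higher and 5 lower (median 0.28). Pgk1 went from 367, 410.4 and 389 to 744, 769.6 and 771 CPM, Ldha from 962, 1021 and 983 to 1488, 1564 and 1580.0 CPM, and the oxygen sensor Egln3 from 2.69, 1.64 and 1.73 to 34.0, 32.7 and 32.5 CPM. Ca9, another hypoxia gene, fell from 388, 385 and 399 to 93.8, 104 and 96.0 CPM. Fat use and storage had 16 higher and 8 lower of 37, and Cpt1a, the gate of mitochondrial fat oxidation, went from 49.7, 50.4 and 52.7 to 161, 168 and 171 CPM and the lipid droplet protein Plin2 from 68.4, 72.4 and 74.7 to 158, 169 and 164 CPM.

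Respiratory chain genes had 4 higher and 15 lower of 44, which turned to 17 and 6 with library size alone, and without the genes of the within-group component 9 of 37 were lower. The transcripts of mitochondrial DNA Mt-co1 and Mt-co3, among the most abundant of all, were not called (-0.0058 ± 0.043 and -0.094 ± 0.054), and had 0.299 and 0.210 with library size alone. Mitochondrial transcripts took 3.52 to 3.81% of counts without erastin and 4.51 to 4.99% with it. Lysosome genes had 5 higher and 16 lower of 31, and 15 and 8 with library size alone. Hexa, which degrades gangliosides, fell under both (-0.85 ± 0.062 with TMM).

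Genes of dividing cells were higher with erastin. In DNA replication 32 of 35 were higher and 0 lower (median 0.90), and in mitosis 33 of 35 higher and 1 lower, Cdc25b, whose sign turned with library size alone (0.089) and whose call was lost without miR-Exo replicate 1 or erastin + miR-Exo replicate 2 (median 0.94). Mcm6, of the replicative helicase, stood at 62.6, 66.2 and 62.5 CPM without erastin and 151, 153 and 159.5 CPM with it (log2 fold change 1.28 ± 0.053, adjusted p 4.29e-10), and Tyms, which makes thymidylate, went from 22.4, 25.5 and 25.8 to 68.9, 70.8 and 69.6 CPM. Mki67, the proliferation marker, went from 193, 184 and 199 to 421, 426 and 369 CPM and Top2a from 139, 155 and 151 to 356, 362 and 314 CPM. In each the groups were apart and the 3 libraries of a group close together. Entry into S phase was represented by Ccne1, Ccne2 and Cdk2, which rose by 1.53 ± 0.074, 1.67 ± 0.078 and 1.58 ± 0.070. The D cyclins split: Ccnd1 rose, and Ccnd2 and Ccnd3 fell (-1.08 ± 0.069 and -1.07 ± 0.17). Ccnd3 is among the genes of highest weight in the within-group component.

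Promoters of mitosis genes are known for the CHR element TTTGAA and the CCAAT box. In the window used above, on both strands, TTTGAA lay in 20 of the 30 mitosis genes with a promoter (66.7%), in 3 of 29 replication genes (10.3%) and in 11.7% of tested genes. CCAAT lay in 66.7%, 62.1% and 37.5% of them in the same order. The 3 stretches shown have TTTGAA in capitals, and Mki67 holds it again in lower case.
Cdc20, chr5:137255810-137255885, - strand: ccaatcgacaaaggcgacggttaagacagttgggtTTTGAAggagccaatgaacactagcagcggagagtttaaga
Mki67, chr1:199952652-199952727, - strand: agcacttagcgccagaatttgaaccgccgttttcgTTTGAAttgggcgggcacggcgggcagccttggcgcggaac
Cdk1, chr20:19265242-19265292, + strand: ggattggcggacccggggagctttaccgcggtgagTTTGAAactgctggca
Cdk1, the kinase that drives mitosis, rose by 0.64 ± 0.084, and Cdc20, which starts anaphase, by 0.55 ± 0.13.

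Brakes of the cell cycle did not share a direction. Cdkn1a (p21) stood at 476, 286 and 209 CPM without erastin and 176, 161 and 209.8 CPM with it (log2 fold change -0.83 ± 0.28); the groups overlapped, and the call was lost with library size alone (-0.52) and without miR-Exo replicate 1 (-0.44), erastin + miR-Exo replicate 1 or erastin + miR-Exo replicate 2. Cdkn2b (p15) went from 2.24, 2.58 and 7.53 to 23.6, 24.1 and 23.9 CPM (2.53 ± 0.55). Among stress-response genes Mdm2 and Plk2 rose by 0.60 ± 0.048 and 1.50 ± 0.056, and Gdf15, a stress cytokine, fell from 12.0, 9.24 and 5.92 to 1.24, 0.616 and 3.10 CPM.

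Reported targets of miR-221-3p are compared here between cells that all received it, so the comparison bears on erastin and not on the microRNA. They were split, 7 higher and 7 lower of 22 (median 0.072). Cdkn1b (p27) went from 27.6, 23.8 and 25.0 to 16.1, 13.7 and 14.1 CPM (log2 fold change -0.80 ± 0.14, adjusted p 2.95e-04), Icam1 from 109.6, 116 and 121 to 253, 235 and 264 CPM and Bcl2l11 from 6.04, 6.82 and 8.54 to 20.5, 19.0 and 19.4 CPM. Kit, Foxo3 and Trps1 were not called.

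Several smaller lists hold single large changes. Aqp1, a water channel of nucleus pulposus cells, went from 426, 487 and 448 to 109.9, 103 and 121 CPM, and the taurine carrier Slc6a6, used in osmotic adaptation, from 301, 263 and 295 to 102, 96.5 and 101 CPM. The list of water balance had 8 higher and 5 lower of 21. Hsd11b1, which regenerates active glucocorticoid, went from 3.86, 4.55 and 4.61 to 23.8, 24.2 and 23.9 CPM, and the clock repressor Nr1d1 from 43.3, 42.8 and 46.5 to 14.6, 11.3 and 13.6 CPM, in a list of 8 higher and 8 lower of 21. The metallothionein Mt2A went from 1.97, 2.53 and 1.78 to 36.1, 40.0 and 41.7 CPM and Mt1 from 0.477 to 1.95 CPM on average. Primary cilium genes had 11 higher and 8 lower of 29, and Pkd1, a protein of the cilium membrane, went from 735, 663 and 756 to 328, 293 and 318 CPM. Vesicle genes had 6 higher and 13 lower of 24, and 10 and 6 with library size alone.

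The same comparison under NPPC-Exo, which shares no library with it, changed 6816 genes (43.6%). Of the 7687 genes changed under miR-Exo 6760 (87.9%) had the same sign under NPPC-Exo, 4949 (64.4%) were also called with that sign, 148 were called with the other sign and 2590 were not called. Across these genes, which are not independent replicates, the slope of the NPPC-Exo on the miR-Exo log2 fold change was 0.661 and 5292 had the larger change under miR-Exo. The genes were chosen by their change under miR-Exo, so the slope and these counts are descriptions with no test. The difference itself was tested as an interaction, which called 2006 genes (12.8%), 909 higher (5.81%) and 1097 lower (7.01%) under miR-Exo, and 152 (0.971%) and 403 (2.58%) at 2-fold or more. This count rests on single libraries: it was 1218 without NPPC-Exo replicate 2, 1272 without miR-Exo replicate 1, 1205 without erastin + NPPC-Exo replicate 3, and 1227 and 1300 without erastin + miR-Exo replicates 1 and 2. Without the genes of the within-group component it was 1612, and the share of higher genes went from 45.3 to 55.6%.

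**Figure D5:**
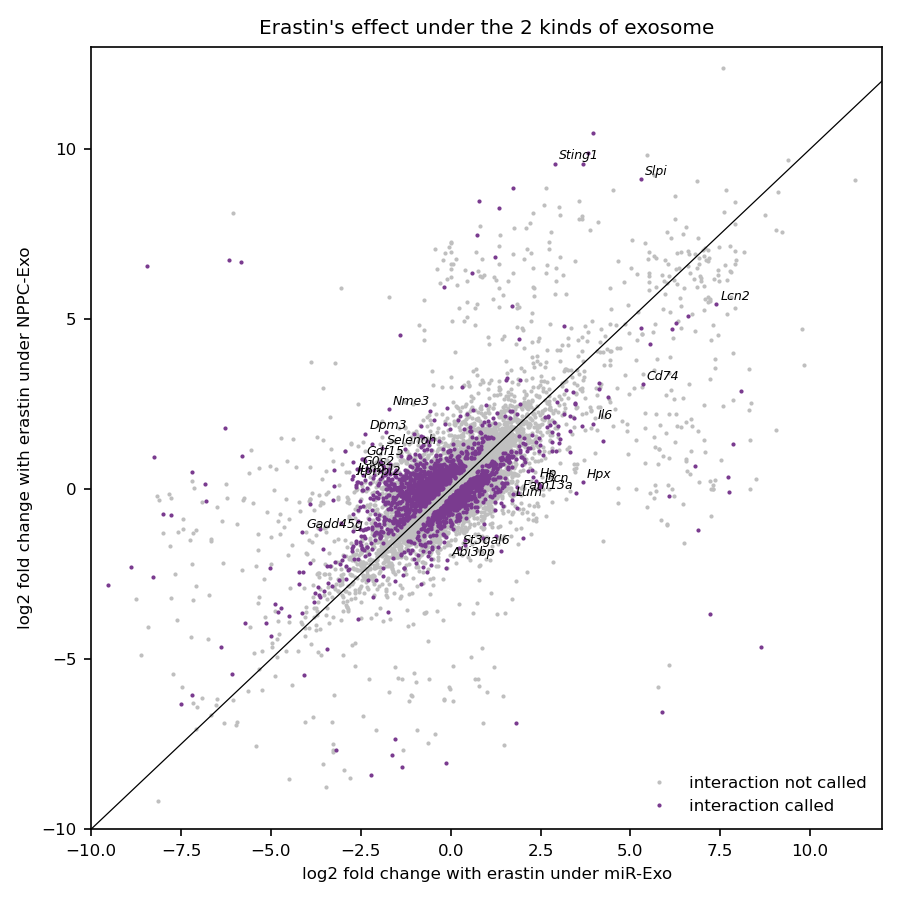
Log2 fold change with erastin under NPPC-Exo (vertical axis) against that under miR-Exo (horizontal axis) for the genes tested, with the line of identity. Genes whose difference was called (2006) are coloured and the 20 named ones labelled; Dcn, Lum and Hp lie near 0 under NPPC-Exo and Junb and Gdf15 near or above 0 there.

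Several secreted and matrix genes had the higher log2 fold change under miR-Exo. Dcn had 2.51 ± 0.17 under miR-Exo and 0.081 ± 0.18 under NPPC-Exo (interaction 2.43 ± 0.24, adjusted p 1.63e-04), Lum 1.71 ± 0.078 and -0.33 ± 0.076 (interaction adjusted p 1.72e-06), and haptoglobin (Hp) 2.37 ± 0.26 and 0.24 ± 0.25 (interaction adjusted p 0.00274). Il6 rose under both, by 3.97 ± 0.14 and 1.93 ± 0.13 (interaction adjusted p 8.72e-05), and so did Sod2, by 4.13 ± 0.14 and 2.95 ± 0.14 (interaction adjusted p 0.00185). Slc7a11 fell by less under miR-Exo, -0.40 ± 0.075 against -1.36 ± 0.076 (interaction 0.95 ± 0.11, adjusted p 3.36e-04). It stood at 24.1 and 18.2 CPM on average under miR-Exo and at 36.1 and 14.1 CPM under NPPC-Exo.

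In the other direction Sting1, an adaptor of DNA sensing, and Slpi, a protease inhibitor, had the lower interactions of -6.68 ± 1.03 and -3.81 ± 1.09, and both had 0 counts in all NPPC-Exo libraries without erastin, so these fitted values are no bounds. Gdf15 fell under miR-Exo and had 0.87 ± 0.52 under NPPC-Exo (interaction adjusted p 0.0131), and Junb had -2.71 ± 0.68 and 0.38 ± 0.65 (interaction adjusted p 0.0462). Both are among the genes of highest weight in the within-group component. Dpm3 and Selenoh had interactions of -4.01 ± 1.08 and -3.10 ± 0.89, and their fall under miR-Exo was not called when erastin + miR-Exo replicate 1 or 2 or miR-Exo replicate 2 was left out, nor, for Selenoh, without miR-Exo replicate 1. Of the iron genes Tfrc rose by 0.97 ± 0.071 and 0.50 ± 0.070 (interaction adjusted p 0.00941), and 10 of 25 had a higher and 2 a lower interaction. Of the actin fibre genes 21 of 37 had a lower and 1 a higher interaction, with Acta2 at -2.22 ± 0.060 and -1.58 ± 0.059. NF-κB genes had 3 higher and 4 lower of 25, and Nfkbia had 3.19 ± 0.13 and 3.54 ± 0.13 with an interaction of -0.35 ± 0.18 (adjusted p 0.216).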

How the data were processed

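RNA of rat nucleus pulposus cells was sequenced in 12 libraries, 3 in each of 4 groups, and the labels' group names placed every library. The authors deposited a table of counts per gene and library and, in the same table, FPKM values (fragments scaled for gene length and library total). The submitters' processing notes name StringTie and the genome build mRatBN7.2; the aligner and the counting tool are not given in the sources used. Of the deposited counts from 1 to 20, 57.3% were even, so both mates of a pair may have been counted, and halved counts were tried. No column of per-sample values was left unused (0).

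Of 21071 genes listed, 15650 passed edgeR's filterByExpr over the 4 groups and 5421 did not. Genes were tested on the deposited counts with edgeR 4.0.16 (R 4.3.3): TMM scaling, a quasi-likelihood fit over the 12 libraries, which share 1 estimate of spread, and contrasts for erastin under miR-Exo, under NPPC-Exo and for their difference, with Benjamini-Hochberg adjustment and a threshold of 0.05. CPM use the TMM-scaled totals. The procedure was tested on simulated data.

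Named genes were the 15 largest changes each way with non-overlapping libraries, a mean FPKM of at least 2 and a proper symbol, in each list the 6 members of smallest adjusted p, a fixed set of ferroptosis, matrix and inflammation genes whatever their result, the 10 most abundant genes, and the 10 largest differences each way between exosome types. Other list members are given by their values. Some genes that this rule names are not reported here. The members and lists were chosen with earlier results of these data known.

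Alternatives were DESeq2 size factors, library size alone, no filter, a minimum of 5 CPM in 3 libraries, DESeq2 1.42.0, limma 3.58.1 on log2(FPKM + 1) and log2(FPKM + 0.1) of the authors' FPKM, halved counts, a replicate block, only the 6 libraries compared, and leaving out each library. An alternative without the genes of the within-group component was added after seeing the data. Promoter and microRNA sequences are RefSeq's (GRCr8); no GRCr8 coordinate was set beside a coordinate of the deposited table.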

Additional observations from a re-analysis of the deposited data

Results flagged for a closer look

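The effect of erastin differed between the 2 exosome types, by the test of the interaction, for 2006 of 15650 genes. Given here are 10 in each direction, by the rule for named genes, and, of the genes named whatever their result, those whose difference was called. Each value is the log2 fold change with erastin under miR-Exo minus that under NPPC-Exo, positive where the value was higher under miR-Exo. The 10 largest positive differences named by the rule were those of Hpx (3.46), Dcn (2.43), Cd74 (2.25), Hp (2.12), Il6 (2.04), Lum (2.04), Abi3bp (2.01), Fam13a (1.98), St3gal6 (1.96) and Lcn2 (1.95). They include plasma proteins that bind haem and haemoglobin (Hpx, Hp), matrix proteins (Dcn, Lum, Abi3bp) and factors of inflammation (Il6, Lcn2). The 10 largest negative differences were those of Sting1 (-6.68), Nme3 (-4.08), Dpm3 (-4.01), Slpi (-3.81), Gdf15 (-3.33), G0s2 (-3.15), Selenoh (-3.10), Junb (-3.09), Itpripl2 (-3.02) and Gadd45g (-2.87). Sting1 and Slpi had 0 counts in all NPPC-Exo libraries without erastin, and Junb and Gdf15 are among the genes of highest weight in the within-group component. 

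Of the ferroptosis genes named whatever their result, the difference was called for Slc7a11 (0.95), Tfrc (0.47), Hmox1 (-0.59), Ptgs2 (0.58), Nqo1 (-0.35) and Sod2 (1.18). Of the matrix genes it was called for Col2a1 (-1.74), Col1a1 (-0.98), Sox9 (-1.12), Mmp13 (1.37), Adamts5 (0.53) and Timp3 (-0.82), and of the cell-cycle inhibitors for Cdkn1b (-1.15). Both collagens, Sox9 and the inhibitor Timp3 had the lower value under miR-Exo, and the proteases Mmp13 and Adamts5 the higher one. Col2a1, Col1a1, Sox9 and Cdkn1b are, like Junb and Gdf15, among the genes of highest weight in the within-group component. The median difference of those genes between exosome types was -0.63. The count of called differences over all genes was 1205 to 2419 when each library was left out in turn.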

How the results depend on the processing

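The count of genes changed under miR-Exo (7687) stayed within 1.5 times under every alternative run, from 6637 with at least 5 CPM in 3 libraries to 9274 with limma on log2(FPKM + 1) without a filter, and from 6766 to 7349 when each library was left out. DESeq2 called 7872. The share of higher genes was 50.4% with TMM but 76.4% with library size alone and 76.5 to 76.7% with limma on FPKM, and the median log2 fold change of all genes moved to 0.334 with library size alone. Under NPPC-Exo the count was 6816 and 5971 to 6585 when each library was left out. The count of differences between exosome types (2006) was 1205 to 2419 when each library was left out and 2669 by DESeq2. Log2 fold changes under miR-Exo that changed sign, with at least 1 of the values called, were all small: with library size alone Cdc25b 0.089, Fn1 0.033, Hspa5 0.10, Mmp14 0.263, Mmp2 0.287, Mt-co1 0.299, Mt-co3 0.210, Rb1 0.029, Tf 0.058 and Trps1 0.237, with limma on log2(FPKM + 1) Cdc25b 0.076, Fn1 0.027, Hspa5 0.091, Mmp14 0.255, Mmp2 0.279, Mt-co1 0.292, Mt-co3 0.203, Rb1 0.018, Tf 0.047 and Trps1 0.215, the same values without its filter (where Mt-co1 and Mt-co3 were not called), and with log2(FPKM + 0.1) Cdc25b 0.083, Fn1 0.027, Hspa5 0.091, Mmp14 0.256, Mmp2 0.281, Mt-co1 0.292, Mt-co3 0.203, Rb1 0.019, Tf 0.051 and Trps1 0.231. Over all alternatives run for the 314 genes named, 5472 values kept the sign and the side of the threshold. Of the others 58 lost the call, 47 gained one and 38 changed sign. Junb by DESeq2, which returned no adjusted p, is counted among the 58. Library size alone and limma on FPKM set the level of all genes in another way than TMM.

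Deviations of same-numbered libraries of the 2 groups correlated at 0.034, 0.047 and -0.238 over 9055 genes. These values give no sign of pairing by number, and cannot exclude a culture or animal shared by such libraries. The replicate block gave 7596 genes under miR-Exo, 6720 under NPPC-Exo and 1928 differences, and 6714 with only the 6 libraries compared (7487 without the block). With the block on those 6 libraries the calls of Acsl4 (0.18), Actg1 (0.11), Cdc25b (-0.23), Dpm3, Nme3 and Spred1 (0.29) were lost.

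With 3 libraries a group the spread rests on few values. Libraries of a group differed beyond counting noise (chi-square per degree of freedom 12.3 to 49.1), and how far depth limits the genes of lowest counts was not tested. The dose of each library and the pairing of cultures are not given in the labels. Whether both mates were counted was not tested beyond halving the counts, which gave 7793 genes.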

Other observations

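Regulators of the first gap phase of the cell cycle had 14 of 24 members higher and 6 lower (median 0.47), beside the replication and mitosis genes of the report. The repressive E2f7 and E2f8, which close the replication programme, rose from 9.23 to 18.8 CPM and from 10.9 to 26.9 CPM on average, Ccnd1 rose by 0.47 ± 0.064, and Cdk6 and Rb1 had -0.51 ± 0.090 and -0.28 ± 0.068, calls lost with library size alone, where the sign of Rb1 turned (0.029), as it did with limma on FPKM. Feedback brakes of MAP kinase signalling had 5 higher and 5 lower of 20: Spry1, Spry4, Dusp8 and Dusp14 fell along with Dusp1 (-0.95 ± 0.19, -0.99 ± 0.078, -1.93 ± 0.20 and -1.09 ± 0.14), and Dusp10, Dusp16, Errfi1 and Cish rose (0.57 ± 0.15, 1.03 ± 0.095, 0.55 ± 0.089 and 1.56 ± 0.18). Spred1 had 0.30 ± 0.10, a call lost without miR-Exo replicate 1 (0.242), miR-Exo replicate 3 (0.297) or erastin + miR-Exo replicate 1 (0.209). Metallothioneins and zinc carriers had 9 of 15 members higher and 3 lower; Slc39a6 and Slc39a10, which form 1 importer, rose by 1.21 ± 0.068 and 0.73 ± 0.064, and Slc39a7, which releases zinc from the endoplasmic reticulum, fell from 301, 275 and 279 to 131, 106 and 168 CPM.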
